A study of Mus musculus with 4 samples.

Results

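A set of 10 genes that mark oligodendrocyte precursors and the steps of their commitment were followed through 4 spatial transcriptomes of mouse brain. They are Pdgfra, Cspg4, Vcan, Olig2, Olig1, Sox10, Neu4, Gpr17, Bcas1 and Myrf, chosen by name, and they made up 10 of the 32285 genes counted. All 10 were found once in the count tables and all 10 passed the filter on low counts. The samples were 10 µm sections of fresh-frozen brain on 10x Visium slides, which capture RNA on barcoded spots that each lie under several cells. The knockout group was Slco1c1-iCreERT2; Pdcd10fl/fl, called Pdcd10BECKO, and the control group was Pdcd10fl/fl littermates, with 2 libraries in each. Pdcd10 is the CCM3 gene; when brain endothelium loses its scaffold protein, dilated and leaky vessel clusters called cerebral cavernous malformations form. Slco1c1-iCreERT2 is a tamoxifen-induced Cre of brain endothelial cells, so the floxed gene is targeted in endothelium and not in the oligodendrocyte lineage. Every mouse received 50 µg of 4-hydroxytamoxifen at postnatal day 1, and the brains are of day 65. Sample titles and the design text give normoxia for all libraries, but a treatment label says hypoxia for the knockouts alone, and the treatment protocol gives 12% oxygen for 2 days for all 4. If that label holds, oxygen and genotype cannot be told apart.

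Oligodendrocyte precursors are dividing glia that persist in the adult brain and are a source of new myelinating cells. They carry the receptor PDGFRα and the proteoglycan NG2, and keep OLIG2, OLIG1 and SOX10 from the precursor stage into the mature cell. On commitment they lose PDGFRα and pass through a short premyelinating stage with GPR17 and BCAS1, after which MYRF switches on the myelin genes. In this order Pdgfra, Cspg4 and Vcan were taken as precursor genes, Olig2, Olig1 and Sox10 as lineage factors, Neu4, Gpr17 and Bcas1 as committed-stage genes, and Myrf as the gene of differentiating cells. Olig1, Olig2, Sox10, Bcas1 and Myrf are also read in mature oligodendrocytes, while Pdgfra is also known from fibroblasts of vessels and meninges and Cspg4 from pericytes. A spot holds cells of several types, so fewer cells of a stage and less RNA per cell cannot be told apart in these data.

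Promoter windows of 300 bases, from 250 before to 50 after a RefSeq start site on GRCm38.p6, were at hand for 5 of the 10 genes (Pdgfra, Vcan, Olig2, Cspg4 and Neu4). The windows of 3 genes are printed 5′ to 3′ on the gene's strand because these genes took different directions below: Pdgfra was not called, Vcan rose and Olig2 fell. They lie at chr5:75152001-75152300 (plus strand), chr13:89742463-89742762 (minus strand) and chr16:91225300-91225599 (plus strand). The Pdgfra window lies wholly inside the gene span given below, which begins at base 75151322. The Vcan window also lies inside its span, whose 5′ end on the minus strand is base 89743027. Both windows therefore miss the outermost start of the gene, while the Olig2 window holds it. Capitals mark a match to the SOX letters ACAAAG or ACAATG, read on both strands.
Pdgfra: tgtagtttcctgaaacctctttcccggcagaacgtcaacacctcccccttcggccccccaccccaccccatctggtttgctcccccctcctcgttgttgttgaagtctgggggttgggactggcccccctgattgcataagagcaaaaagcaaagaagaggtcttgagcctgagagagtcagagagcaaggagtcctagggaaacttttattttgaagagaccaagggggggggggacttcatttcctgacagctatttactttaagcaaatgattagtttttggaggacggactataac
Vcan: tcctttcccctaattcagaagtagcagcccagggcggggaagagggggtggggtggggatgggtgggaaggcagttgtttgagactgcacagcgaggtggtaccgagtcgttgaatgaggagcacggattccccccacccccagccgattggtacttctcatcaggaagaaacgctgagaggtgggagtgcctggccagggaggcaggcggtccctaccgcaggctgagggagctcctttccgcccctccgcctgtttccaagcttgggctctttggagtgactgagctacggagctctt
Olig2: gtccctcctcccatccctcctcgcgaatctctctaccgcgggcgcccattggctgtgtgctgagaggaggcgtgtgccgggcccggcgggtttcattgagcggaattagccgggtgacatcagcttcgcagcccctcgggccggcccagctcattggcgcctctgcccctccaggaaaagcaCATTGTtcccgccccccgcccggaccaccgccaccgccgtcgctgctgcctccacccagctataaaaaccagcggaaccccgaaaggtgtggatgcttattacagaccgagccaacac
The match in the Olig2 window is ACAATG on the opposite strand, printed as CATTGT, and begins 68 bases before the start site (offset -68). The windows of the other 4 genes held neither SOX word, and none of the 5 held the E-box CAGCTG, which reads the same on both strands. Of 32851 RefSeq windows of the same length, 28.6% held a SOX word and 16.3% held the E-box. GC content was 65% for Olig2, 61% for Vcan and 51% for Pdgfra, against a median of 52.7% over all windows.

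Spots with at least 1000 UMIs (unique molecular identifiers, each standing for 1 captured RNA molecule) were kept, 2931 and 4096 in controls and 4599 and 4472 in knockouts. The libraries held 50148764 to 74467027 UMIs in all, and the median per kept spot was 15326 and 16226.5 in controls and 8158 and 13164.5 in knockouts. All 4 libraries list the same 4992 barcodes, which are positions of the slide and not cells. Whole-library expression correlated at 0.997 between the controls and 0.998 between the knockouts, and at 0.980 to 0.982 across groups. Pdcd10 itself stood at 90.9 and 82.2 counts per 1000000 UMIs (CPM, scaled by TMM) in controls and 80.3 and 83.0 in knockouts (log2 fold change -0.08, edgeR adjusted p = 0.410), in tissue where endothelium is a small share of cells. The labels do not say whether the 2 libraries of a group are from separate animals, so p-values measure the spread between these libraries, which may be technical.

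Over whole sections, all 3 lineage factors, Gpr17 and Bcas1 of the committed stage, and Myrf fell in knockouts, while of the precursor genes Cspg4 fell, Vcan rose and Pdgfra was not called. Of the 10 genes, 7 fell, 1 rose and 2 were not called (edgeR quasi-likelihood test, adjusted p under 0.05 over 17546 genes). Of all genes tested, 38.4% were called, 18.3% lower and 20.1% higher, which is the background for these counts. The median log2 fold change was -0.56 over the 10 genes and -0.00082 over all genes. In 9 of the 10 genes the libraries of the groups did not overlap, which was also so for 72.5% of all genes.

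**Figure D1:**
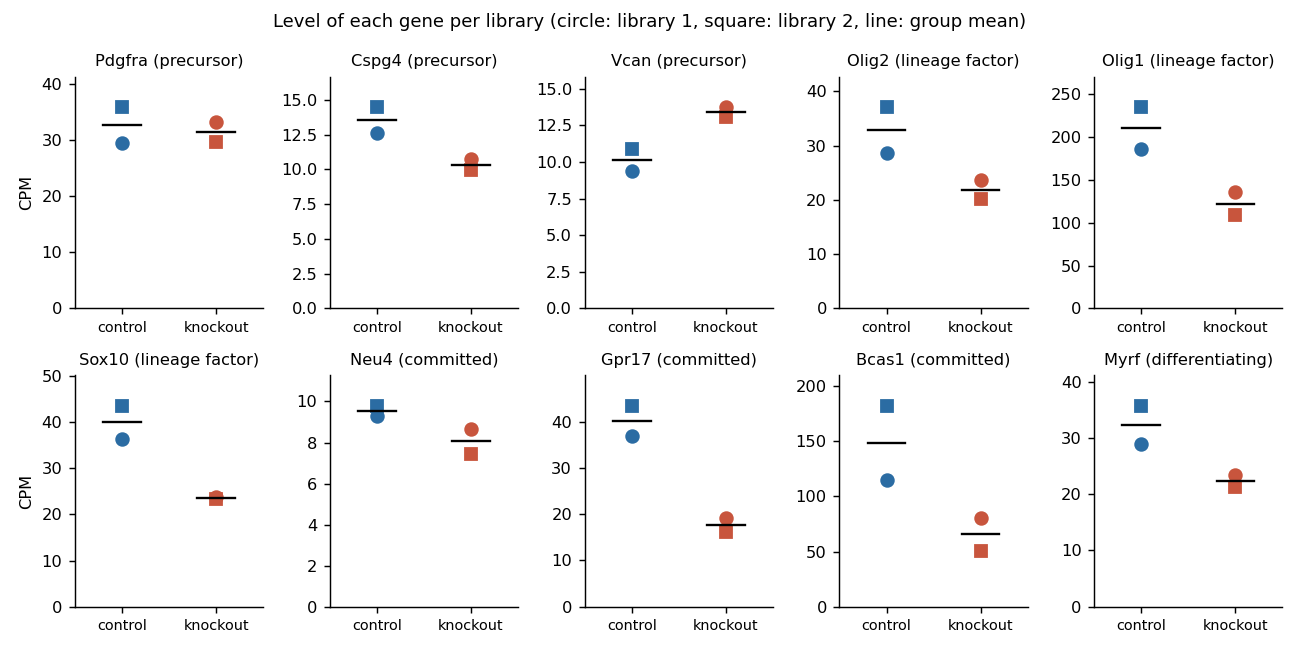
Level of each gene in each library, in CPM scaled by TMM factors, over spots of at least 1000 UMIs. Each panel has its own axis from 0, circles are the first library of a group, squares the second, and lines group means. The groups overlap for Pdgfra, Vcan is higher in both knockouts, and the other 8 genes are lower in both.

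Among the precursor genes, Pdgfra, the receptor for the growth factor PDGF-A that keeps precursors dividing, lies at chr5:75151322-75198206. It stood at 29.5 and 35.9 CPM in controls and at 33.4 and 29.7 CPM in knockouts. The groups overlapped, and the log2 fold change was -0.06 with a 95% interval of -0.31 to 0.19 (edgeR adjusted p = 0.708). Cspg4, which encodes the NG2 proteoglycan of precursors and pericytes (chr9:56865104-56899870), stood at 12.6 and 14.5 CPM in controls against 10.7 and 9.93 CPM. Both knockouts were below both controls, and Cspg4 fell by 0.39 on the log2 scale (SE 0.102, edgeR adjusted p = 0.0209). That call was lost without control 2 (adjusted p = 0.0637), without knockout 2 (adjusted p = 0.0890) and with every spot thinned to 1000 UMIs (0.06 on the log2 scale, adjusted p = 0.888). Vcan, which encodes versican, a chondroitin sulphate proteoglycan of the matrix that precursors make, is at chr13:89655309-89743027. Its level was 9.39 and 10.9 CPM in controls and 13.7 and 13.0 CPM in knockouts. Both knockouts were above both controls, and Vcan rose 1.32-fold (log2 fold change 0.40, SE 0.101, edgeR adjusted p = 0.0197). The Vcan call was lost without control 1 (adjusted p = 0.0536), without knockout 1 (adjusted p = 0.0658) and with spots thinned to 1000 UMIs (adjusted p = 0.0600).

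Each of the 3 lineage factors fell. Olig2, the basic helix-loop-helix factor that specifies the lineage (chr16:91225550-91228677, whose start lies within the window printed above), stood at 28.6 and 37.1 CPM in controls and 23.7 and 20.1 CPM in knockouts. Every knockout value was below every control value, a 1.51-fold drop (log2 fold change -0.59, SE 0.133, edgeR adjusted p = 0.0126). Olig1, its neighbour 41091 bases further along the same chromosome (chr16:91269769-91271939), is a related factor that acts in maturation and myelin repair. Olig1 stood at 186 and 235 CPM against 136 and 109 CPM, with the groups apart, and was 1.72-fold lower (log2 fold change -0.78, SE 0.140, edgeR adjusted p = 0.00506). Sox10, an HMG-box factor kept through the whole lineage and needed for myelin gene expression (chr15:79154913-79164490), stood at 36.4 and 43.6 CPM against 23.9 and 23.3 CPM. The knockouts lay close together and below both controls, and Sox10 was 1.70-fold lower (log2 fold change -0.76, SE 0.0945, edgeR adjusted p = 0.00115).

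Of the 10 genes, Gpr17 and Bcas1 of the committed stage had the largest fold changes. Gpr17, a G-protein-coupled receptor of the premyelinating stage that restrains final differentiation, lies at chr18:31942999-31949890. It stood at 36.8 and 43.4 CPM in controls and at 19.2 and 16.2 CPM in knockouts. Both knockouts lay far below both controls, a 2.28-fold drop (log2 fold change -1.19, SE 0.113, edgeR adjusted p = 0.000365). Bcas1, an early myelinating-stage gene (chr2:170343973-170427911), stood at 114 and 182 CPM against 80.2 and 50.8 CPM, a 2.27-fold drop (log2 fold change -1.18, SE 0.257, edgeR adjusted p = 0.0109). The groups did not overlap, but the 2 libraries of each group were further apart for Bcas1 than for Gpr17. Neu4, a sialidase gene (chr1:94020493-94028334), stood at 9.31 and 9.79 CPM against 8.66 and 7.45 CPM and was not called (log2 fold change -0.25, 95% interval -0.51 to 0.01, edgeR adjusted p = 0.111). Myrf, which encodes the membrane-bound factor that cleaves itself and turns on myelin genes (chr19:10208271-10240777), stood at 28.8 and 35.7 CPM against 23.3 and 21.2 CPM. Both knockouts were below both controls, and Myrf was 1.45-fold lower (log2 fold change -0.54, SE 0.111, edgeR adjusted p = 0.00880).

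Gpr17 lies wholly within the span of Lims2, which encodes a focal adhesion protein, over 6892 bases. Lims2 stood at 20.9 and 25.1 CPM in controls and 15.3 and 12.6 CPM in knockouts (log2 fold change -0.73, edgeR adjusted p = 0.00413). Whether the counting used strand is not given in the sources used here, so reads of the pair may be split between them and the values of both are uncertain to that extent. Vcan overlaps the lncRNA Gm4117 and Bcas1 the lncRNA Bcas1os2, with Gm4117 below 0.5 CPM in all 4 libraries.

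**Figure D2:**
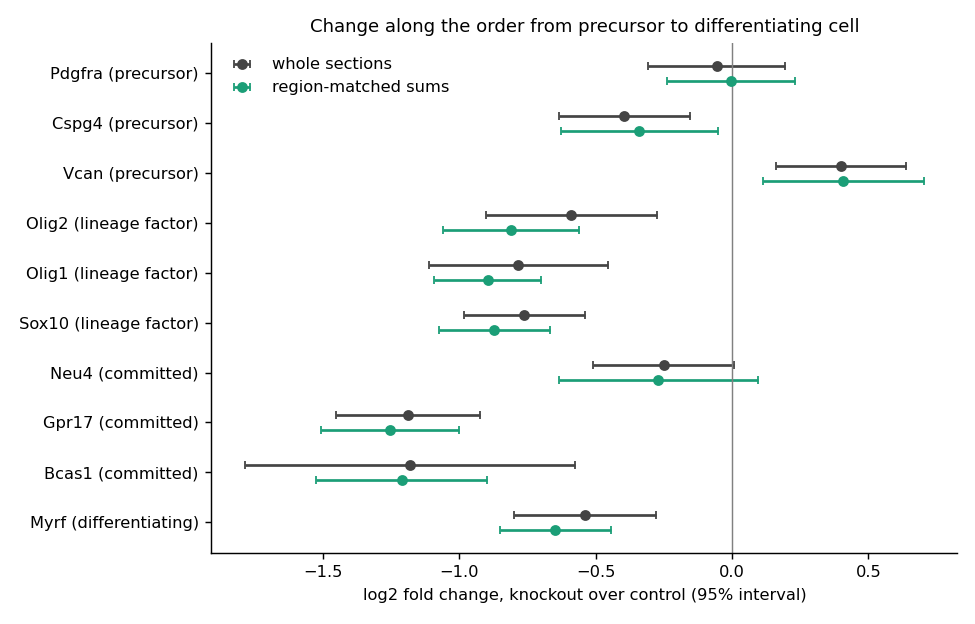
Log2 fold change of each gene, knockout over control, ordered from precursor genes through lineage factors and committed-stage genes to Myrf, over whole sections and over region-matched sums. Bars are 95% intervals of the edgeR fit. Gpr17 and Bcas1 lie lowest in both, Pdgfra lies at about 0 and Vcan above it.

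The makeup of the lineage signal was read from UMIs of the 10 genes as shares of their sum, a description without a test since 2 libraries against 2 cannot reach an exact permutation p under 0.333. The 3 precursor genes gave 10.5% and 9.46% of these UMIs in controls and 15.5% and 17.5% in knockouts. The 3 committed-stage genes gave 32.6% and 36.3% against 29.0% and 24.8%. Most of their UMIs came from Bcas1, which is also read in mature oligodendrocytes. Bcas1 gave 5583 of 7835 and 11178 of 14449 committed-stage UMIs in controls, and 4324 of 5826 and 3907 of 5723 in knockouts. The lineage factors gave 51.0% and 48.7% against 49.2% and 50.7%, and Myrf 5.86% and 5.52% against 6.26% and 7.06%. The knockouts were above the controls in the precursor share and below them in the committed share, while the lineage factor shares overlapped. Shares of a sum move with its largest members: the summed level of the 3 precursor genes overlapped between groups (51.5 and 61.3 CPM in controls, 57.8 and 52.7 CPM in knockouts), while that of the committed-stage genes did not (160.3 and 235 against 108 and 74.4 CPM).

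Set against Pdgfra in the same library, the later genes had lower counts in knockouts. For every 100 Pdgfra UMIs there were 125 and 121 Gpr17 UMIs in controls and 57.5 and 54.4 in knockouts. Olig1 had 629 and 653 per 100 against 407 and 366, and Myrf 97.6 and 99.4 against 69.9 and 71.4. The libraries of a group lay close together in these ratios, and the groups did not overlap. The drop was not confined to later genes: the precursor gene Cspg4 had 42.8 and 40.3 per 100 in controls and 32.2 and 33.4 in knockouts. Vcan went the other way, with 31.8 and 30.3 per 100 Pdgfra UMIs in controls and 41.1 and 43.9 in knockouts. Per 100 Olig2 UMIs, Myrf had 101 and 96.4 in controls and 98.5 and 105 in knockouts, which overlapped, and Gpr17 had 128 and 117 against 81.0 and 80.3, which did not.

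Sections can hold different parts of the brain, so the test was repeated on sums of 2196 spots per library from 7 regions, thinned to 5000 UMIs a spot. Every library gave the same number of spots of a region, from 151 in striatum to 639 in cortex. A region here is the set of spots that scored highest on a list of genes of that region, with no spot position used, and the names rest on those scores alone. In these sums 6 of the 10 genes fell and 1 rose, where 35.4% of 14938 genes were called, 17.2% lower and 18.1% higher. Gpr17 stood at 42.0 and 48.4 CPM in controls and 21.3 and 16.6 CPM in knockouts (log2 fold change -1.25). Bcas1 (-1.21), Olig1 (-0.90), Sox10 (-0.87), Olig2 (-0.81) and Myrf (-0.65) also fell on that scale. Pdgfra stood at 31.4 and 35.1 CPM against 36.7 and 29.6 CPM, again overlapping. Neu4 was not called (-0.27, edgeR adjusted p = 0.240). Cspg4 had -0.34 (edgeR adjusted p = 0.0634) and was called without control 1 (adjusted p = 0.0459), in spots at their own depth (adjusted p = 0.0203) and in another draw of spots (adjusted p = 0.0226). Vcan rose (0.41, edgeR adjusted p = 0.0326), a call lost with DESeq2 (adjusted p = 0.220), with no filter (0.0746), without control 1 (0.155), without knockout 2 (0.167) and in another draw (0.0559).

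Within single regions the same 3 genes, Gpr17, Bcas1 and Olig1, fell in 7 of 7, over spots of at least 5000 UMIs (2267 and 2557 in controls, 2952 and 3468 in knockouts). Sox10, Olig2 and Myrf fell in 6 of 7, Neu4 in 2 and Cspg4 in 1. Without control 2 the calls for Olig2, Myrf, Neu4 and Cspg4 came to 3, 3, 1 and 3 regions, without knockout 2 to 3, 3, 0 and 0, and with DESeq2 Olig2 had 3, Myrf 1 and Neu4 0. Without control 1 Cspg4 was called in 2 regions and Pdgfra in 1. With all libraries Pdgfra was called in 0 of 7, with log2 fold changes from -0.37 in thalamus to 0.02 in the spots of the cerebellum list. Vcan rose in 1 of 7, the cerebellum list (0.87), and was not called there without control 1, without knockout 2 or with DESeq2. Counted by region, 8 of the 10 genes fell in cortex, where 19.5% of all genes were lower, of 40.2% called. In thalamus 7 fell, where 11.4% of all genes were lower, of 22% called. In midbrain and hindbrain 6 fell (9.41% lower of 17.7% called), and in hypothalamus and amygdala 6 (6.15% of 13.5%). The remaining regions had 5 each, hippocampus (13.2% of 27.9%), striatum (8.94% of 18.2%) and cerebellum (8.08% of 17.1%, with 9.05% higher).

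**Figure D3:**
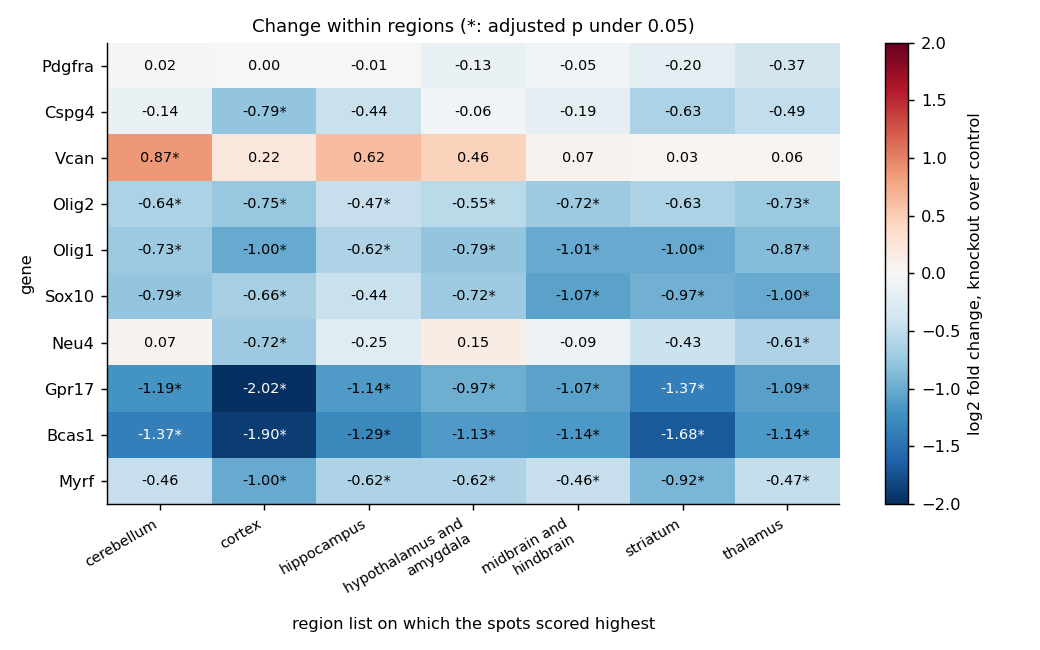
Log2 fold change, knockout over control, of each gene in spots assigned to each of 7 region lists. Blue is lower and red higher in knockouts, and a star marks an edgeR adjusted p under 0.05. Gpr17, Bcas1 and Olig1 carry a star in all 7 columns and Pdgfra in none.

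In cortex Gpr17 stood at 29.7 and 37.9 CPM in controls and at 11.3 and 6.77 CPM in knockouts (log2 fold change -2.02). In hypothalamus and amygdala it stood at 34.2 and 36.3 CPM against 20.02 and 18.5 CPM (log2 fold change -0.97). The groups were apart in both places, and the knockout values were lower in cortex. Cortex was picked because Gpr17, Bcas1 and Myrf had their lowest fold changes there, as did Neu4, Cspg4 and Olig2. Its difference from the other 6 regions is therefore given as a description with no test. That difference was -0.92 on the log2 scale for Gpr17 (SE 0.143, from -1.20 without knockout 1 to -0.67 without knockout 2). Bcas1 stood at 56.9 and 105 CPM in control cortex and 25.8 and 20.3 CPM in knockout cortex, and its difference was -0.64 (SE 0.117, from -0.86 to -0.45 with 1 library left out). For Myrf it was -0.45 (SE 0.130, from -0.67 to -0.31). Neu4 had -0.50, Cspg4 -0.47, Olig1 -0.14, Olig2 -0.13 and Vcan -0.13, while Sox10 had 0.19 and Pdgfra 0.10. The knockout values of Gpr17, Bcas1 and Myrf were below the control values in cortex. Cortex made up 29.5% and 29.8% of the control spots used and 21.6% and 22.5% of the knockout spots, and the summed level of 37 mature oligodendrocyte genes there was 6507 and 10126 CPM against 4178 and 4434 CPM. The part of these in the difference was not tested.

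Where in the tissue the 10 genes lay was read from myelin. The top 10% of each library's spots by share of mature oligodendrocyte UMIs were taken as myelin-rich, with none of the 10 genes in that list. All 10 genes were higher in myelin-rich spots than in the library's other spots (edgeR, library as a block), where 49.4% of 16687 genes were called and 23.6% were higher. Bcas1 had the largest difference of the 10, 5.21-fold (log2 2.38), followed by Myrf (2.33), Sox10 (1.86), Olig1 (1.68) and Olig2 (1.53). Neu4 (1.18) and Gpr17 (0.98) were between these and the precursor genes Vcan (0.63), Pdgfra (0.49) and Cspg4 (0.43). The precursor genes thus had the smallest differences of the 10, and the committed-stage genes were split, with Bcas1 above and Neu4 and Gpr17 below the lineage factors. For Cspg4 the difference was lost with spots thinned to 5000 UMIs (0.18, edgeR adjusted p = 0.497).

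**Figure D4:**
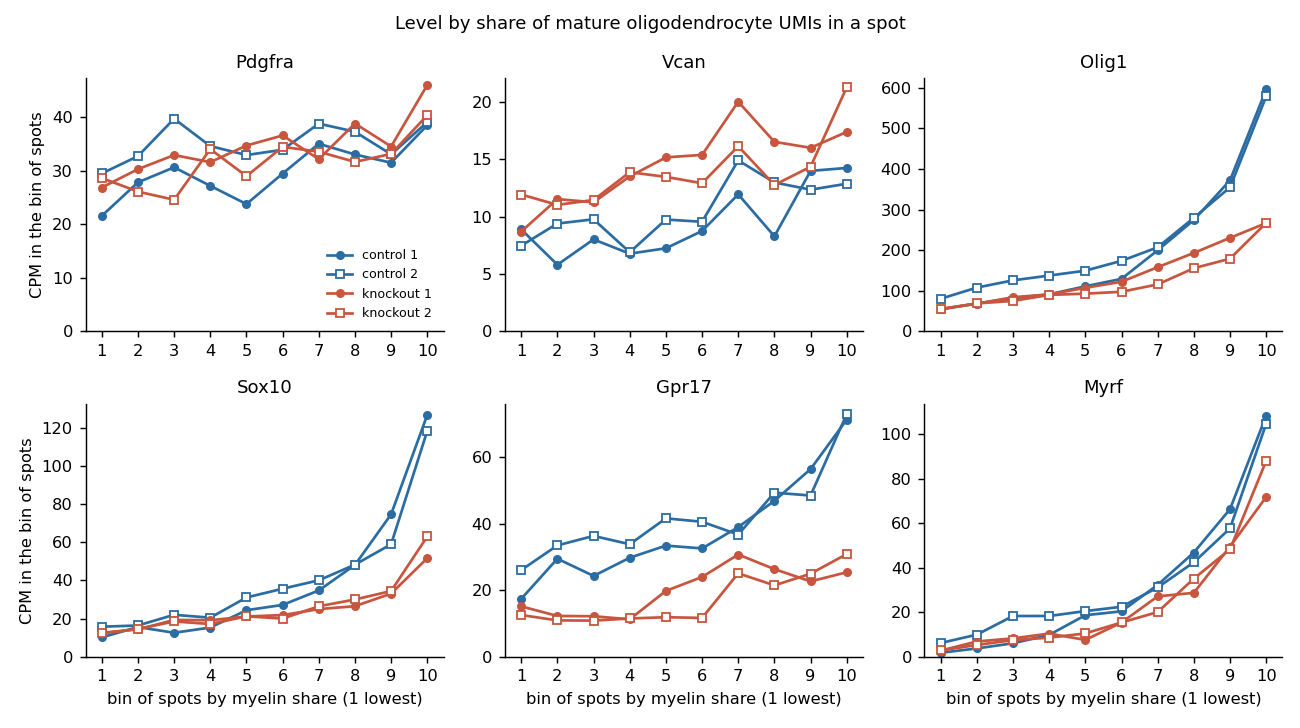
Level of Pdgfra, Vcan, Olig1, Sox10, Gpr17 and Myrf, in CPM of the spots' UMIs, over 10 equal bins of each library's spots ordered by their share of mature oligodendrocyte UMIs. Lines are libraries, controls blue and knockouts red. Olig1, Sox10 and Myrf climb steeply towards the most myelin-rich bin, Gpr17 lies lower in knockouts than in controls in every bin, and Pdgfra climbs only slightly.

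Across 10 equal bins of spots by myelin share, Olig1 went from 54.6 and 80.6 CPM in controls' least myelinated spots to 596 and 579 CPM in the richest. In the knockouts it went from 55.2 and 55.3 CPM to 267 and 267 CPM. The knockouts began at the level of control 1 and ended below both controls. Pdgfra moved from 21.5 and 29.4 CPM to 38.4 and 39.0 CPM in controls and from 26.8 and 28.6 CPM to 45.9 and 40.3 CPM in knockouts, where the groups overlapped at the low end. Gpr17 was at 17.4 and 26.1 CPM in the poorest bin of the controls and 15.1 and 12.6 CPM in that of the knockouts, and at 71.3 and 73.0 CPM against 25.4 and 30.9 CPM in the richest.

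**Figure D5:**
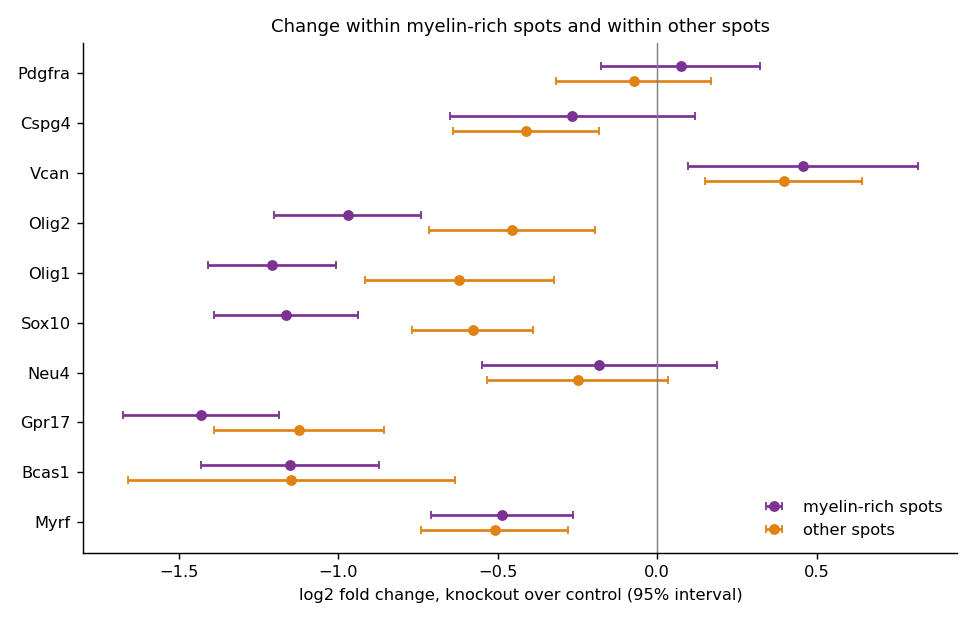
Log2 fold change, knockout over control, of each gene within myelin-rich spots and within all other spots, with 95% intervals of the edgeR fits. Olig1, Sox10 and Olig2 lie lower in myelin-rich than in other spots, while Bcas1 and Myrf have like values in both classes.

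The genotype difference itself was larger in myelin-rich spots for the 3 lineage factors. The interaction of genotype and spot class was -0.59 on the log2 scale for Olig1 (edgeR adjusted p = 0.000926), -0.59 for Sox10 (adjusted p = 0.00210) and -0.52 for Olig2 (adjusted p = 0.00700), where 5.5% of all genes had an interaction and 3.3% a lower one. Fitted alone, myelin-rich spots had 6 of the 10 genes lower, where 13.6% of all genes were lower of 26.2% called, and other spots had 7 lower and 1 higher, where 18.7% were lower and 20.4% higher of 39.1% called. Within myelin-rich spots the log2 fold change of Olig1 was -1.21, against -0.62 in other spots. Sox10 had -1.16 against -0.58, and Olig2 -0.97 against -0.45. The Olig2 interaction was lost with DESeq2 (adjusted p = 0.153) and without control 1 (adjusted p = 0.0661), and that of Sox10 with spots thinned to 5000 UMIs (-0.37, adjusted p = 0.341). No interaction was called for the other 7 genes, although Gpr17 had one without knockout 2 (-0.60, adjusted p = 0.0149). For Bcas1 it was -0.01 with a 95% interval of -0.22 to 0.20, and the genotype difference was -1.15 in both classes. For Myrf it was 0.02 with an interval of -0.24 to 0.28. Myelin-rich spots were less rich in knockouts, with 2.70% and 2.66% of UMIs from the mature list against 4.93% and 5.04% in controls, and the part of this in the interaction was not tested.

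Spots rich in vessel cells were looked at because Cspg4 and Pdgfra are also genes of those cells. In the top 10% of spots by pericyte and mural markers, Cspg4 stood at 21.5 and 19.1 CPM in controls and 18.8 and 20.2 CPM in knockouts, and in other spots at 12.0 and 13.6 CPM against 10.5 and 9.71 CPM. The groups overlapped in the mural-rich spots and were apart in the others. The mural-rich values rest on 50 and 61 Cspg4 UMIs in controls and 46 and 85 in knockouts. The list that picks these spots holds Tagln, which rose in knockouts (below), so the class need not hold the same tissue in both groups. Vcan stood at 8.58 and 16.6 CPM in mural-rich spots of the controls against 9.32 and 10.1 CPM in other spots. In knockouts Vcan stood at 18.3 and 16.1 CPM against 13.7 and 13.4 CPM. Pdgfra had 50.2 and 49.1 CPM in mural-rich spots against 28.1 and 33.8 CPM in controls, and 35.5 and 45.8 CPM against 33.7 and 29.9 CPM in knockouts. Pdgfra stood at 48.7 and 58.3 CPM in fibroblast-rich spots of the controls and 41.8 and 42.8 CPM in those of the knockouts, and at 28.3 and 33.2 CPM against 32.7 and 29.6 CPM elsewhere. The fibroblast-rich class did not hold the same tissue in both groups: Bcas1 in it stood at 97.9 and 163 CPM in controls against 114 and 176 CPM elsewhere, but at 235 and 153 CPM in knockouts against 59.4 and 42.0 CPM elsewhere. Levels of Pdgfra in that class were therefore not compared between groups. Of 20 pericyte and mural markers 8 rose and 1 fell, with summed levels of 237 and 269 CPM against 342 and 313 CPM. Tagln, a smooth muscle gene, rose 13.0-fold and Ndufa4l2 1.88-fold, while Mcam was 2.07-fold lower. Of 19 fibroblast markers 5 rose and 7 fell (median log2 fold change -0.41), with sums of 3026 and 2906 CPM against 3472 and 3594 CPM. Igfbp2 rose 4.19-fold, Serping1 rose 3.40-fold and Dcn, the matrix proteoglycan decorin, was 2.23-fold lower. Of the other defining fibroblast markers, Lum fell (log2 fold change -0.73, edgeR adjusted p = 0.0111). Col1a1 was not called (log2 fold change -0.41, edgeR adjusted p = 0.0957). Of the defining mural markers, Kcnj8 rose (log2 fold change 0.67, edgeR adjusted p = 0.00406), as did Abcc9 (0.91, adjusted p = 0.00732). Rgs5 was not called (0.24, edgeR adjusted p = 0.0556). None of the defining mural and fibroblast markers Rgs5, Kcnj8, Abcc9, Dcn, Lum and Col1a1 was at 0 in any library. The part of these cells in the values of Pdgfra, Cspg4 and Vcan was not tested.

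Other genes of the lineage were counted over lists that hold none of the 10, beside all genes tested, of which 20.1% rose and 18.3% fell. Of 30 precursor genes 3 rose and 15 fell (median log2 fold change -0.23), of 29 tested genes of committed and newly formed oligodendrocytes 1 rose and 15 fell (median -0.41), and of 37 mature oligodendrocyte genes 2 rose and 30 fell (median -1.21). The precursor list was split in direction. Scrg1 stood at 44.0 and 47.9 CPM in controls and 89.7 and 83.1 CPM in knockouts, and rose 1.88-fold (edgeR adjusted p = 0.000226). Megf11 rose 1.78-fold (12.6 and 12.1 against 22.3 and 21.8 CPM).

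Among committed-stage genes outside the 10, Enpp6, a choline phosphodiesterase that marks newly forming oligodendrocytes, was at 15.5 and 16.5 CPM in controls and 3.56 and 2.99 CPM in knockouts. Every knockout was far below every control, a 4.92-fold drop (log2 fold change -2.30, edgeR adjusted p = 2.49e-05). Chn2 was 2.35-fold and Tmem163, a zinc transporter gene, 1.90-fold lower. Of the mature genes, Opalin, a membrane protein of mature oligodendrocytes, was 9.17-fold lower (84.5 and 92.3 against 9.55 and 9.72 CPM). Ugt8a, the enzyme of galactolipid synthesis for myelin, was 4.81-fold and Ppp1r14a 3.70-fold lower. The summed level of the mature list was 11680 and 16091 CPM in controls and 8140 and 6374 CPM in knockouts.

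Genes of signals that reach precursors were called at shares near those of all genes: of 58 tested, 12 rose (20.7%) and 15 fell (25.9%), with a median of -0.08. Hes5, a Notch target, was 3.41-fold lower (24.8 and 24.0 against 8.59 and 5.87 CPM), Cspg5 2.02-fold lower and the chemokine gene Cxcl12 1.70-fold lower. Pdgfa, the ligand of the receptor encoded by Pdgfra and named here after its values were seen, stood at 45.8 and 47.5 CPM in controls and 37.6 and 34.8 CPM in knockouts. Both knockouts were below both controls, and Pdgfa fell by 0.37 on the log2 scale (edgeR adjusted p = 0.00666).

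Markers of other cell types were counted in the same way, against 38.4% of all genes called. Of 15 microglia and macrophage markers 9 rose and 2 fell (sums of 432 and 501 CPM against 811 and 790 CPM), with Gpnmb 20.7-fold, Lgals3 17.3-fold and Lyz2 4.52-fold higher. Of 15 astrocyte markers 6 rose and 1 fell (3282 and 4194 against 5220 and 4369 CPM), with Vim 11.9-fold, Gfap 4.87-fold and Gjb6 2.38-fold higher. Of 15 neuron markers 1 rose and 4 fell (7526 and 7370 against 7487 and 7556 CPM), a share of 33.3% called and sums that overlapped, with Thy1 1.51-fold and Slc32a1 1.44-fold lower and Slc17a7 1.27-fold higher. The part of these in the values of the 10 genes was not tested.

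Across spots of at least 5000 UMIs, the genes most like each of the 10 were found by Pearson's r of log-scaled counts within each library, averaged over the 4. These are descriptions over 2267 to 3468 spots per library, which share the depth and tissue makeup of their library. The genes most like Bcas1 included Mbp (r = 0.754) and Mobp (0.739), both genes of myelin proteins. For Olig1 these were Mbp (0.613) and Mobp (0.597), with r to Mbp of 0.733 and 0.744 in controls and 0.488 and 0.486 in knockouts. Myrf (Mbp 0.495, Mobp 0.492), Sox10 (Mobp 0.389, Cldn11 0.387) and Olig2 (Mbp 0.316, Mobp 0.308) also had genes of myelin among the most like. Among pairs of the 10 genes themselves, Olig1 and Bcas1 had the highest r, 0.524. The r of Gpr17, Neu4, Pdgfra, Vcan and Cspg4 to their nearest genes was 0.220, 0.154, 0.142, 0.118 and 0.0877, low values that were not read further. Over the 4 libraries Pdgfra had 7736 UMIs and Gpr17 6744, against 6502 for Olig2, so these 2 were not sparser than a gene read above. The cause of their low r was not tested.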

How the data were processed

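The values the authors deposited are counts of UMIs for each gene in each spot, not normalised. Per the submitters' processing notes reads were handled with Space Ranger and mm10, and per the file headers the matrices came from Cell Ranger 4 software. No source used here gives the Space Ranger version or says whether counting used strand. Spots were not placed in the section and no image-based tissue call was applied. The 1000-UMI minimum kept 98.6% to 99.5% of UMIs.

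For each library the counts of kept spots were added up and fitted with edgeR 4.0.16 under R 4.3.3: TMM factors of 0.962 to 1.04, filterByExpr, the quasi-likelihood test and Benjamini-Hochberg adjustment over all genes tested, with a threshold of 0.05. Fold changes are knockout over control. Levels over whole sections and region-matched sums use TMM, while levels within a region, bin or class of spots are plain CPM. Levels are per UMI and not per length. Sums, shares and ratios that join different genes are of UMIs without correction for length, and were set side by side between libraries. Member genes and gene lists were chosen with earlier results of these data known. Named genes were the 10 members, Pdcd10, up to 3 genes per list past the threshold with the smallest p and a mean of at least 5 CPM, and 3 most like each member by r after scaling spots to 10000. Results for some genes that this rule names are left out of the text. Region lists held no member, and each spot was given to its best list by mean z score, with at least 50 spots per region and library.

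On simulated counts of 17350 genes with 200 changed, the whole-section test recovered 100% of 2-fold and 78% of 1.5-fold changes with 7 false calls. The region-matched test recovered 98% and 79% with 2 false calls, and the interaction of genotype and spot class 79% and 41% with 7. The simulation gave every gene the same dispersion and changed only genes above a minimum mean count. It also changed far fewer genes than were called here, so these figures need not hold for these libraries. Alternatives were DESeq2 1.42.0, RLE factors, no filter, other depths and spot choices, a replicate block and leaving out each library. The cortex difference (an edgeR interaction, given without a test), the fits within spot classes and the mural- and fibroblast-rich spots were added after seeing the data. Tables and plots were made with Python 3.11.15, pandas 2.3.3, numpy 2.4.6, matplotlib 3.10.9 and scipy 1.17.1. Gene positions are RefSeq's on GRCm38.p6, the build also called mm10, and promoter sequences are RefSeq's from the same table's build.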

Additional observations from a re-analysis of the deposited data

Results flagged for a closer look

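For 3 genes a test of the difference itself found that the genotype effect was not the same in 2 kinds of spots. In myelin-rich spots the log2 fold change was lower than in other spots by -0.59 for Sox10, -0.59 for Olig1 and -0.52 for Olig2 (edgeR interaction, 2 libraries a group). The Sox10 and Olig2 calls were each lost under at least 1 alternative, given beside them above.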

How the results depend on the processing

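The count of the 10 genes called over whole sections was 8, and 6 to 8 under every alternative run; without 1 library it was 7 in each case. Over region-matched sums it was 7 (6 to 8, and 6 to 7 without 1 library). The drop of Gpr17, Bcas1, Olig1, Sox10, Olig2 and Myrf kept its direction and its call in both fits under all alternatives run.

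Over all genes, 6739 were called on whole sections and 3314 of 13331 tested with spots thinned to 1000 UMIs. On region-matched sums 5281 were called and 3003 with DESeq2. Summed over regions, 43 calls of the 10 genes and 22257 of all genes became 10 and 6399 when the best region score had to lead by 0.5, but that setting left only 3 regions with enough spots, and these had 19 and 12673 calls before it. With DESeq2 the 7 regions had 12578 calls of all genes; without 1 library all-gene calls ran from 13462 to 22922. Between spot classes 8248 genes were called and 4947 with spots thinned to 5000 UMIs. For the interaction with spot class 917 were called, against 302 with DESeq2, 386 with thinned spots and 447 to 846 without 1 library. The causes were not tested.

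Changes of sign came in values that were not called on either side, except Cspg4 over whole sections. Pdgfra ran from -0.19 to 0.0926 over whole sections and from -0.17 to 0.14 over region-matched sums without 1 library (0.0926 and 0.0259 without control 2 and knockout 2 in the first, 0.0766 and 0.14 in the second), and was 0.0430 in another draw of spots. Cspg4 was 0.0553 with spots thinned to 1000 UMIs. For the interaction with spot class, thinned spots gave -0.11 for Cspg4, -0.28 for Vcan and -0.14 for Myrf, and the top 20% of spots gave -0.14 for Vcan and 0.12 for Bcas1. Without 1 library that interaction ran from -0.13 to 0.24 for Vcan (-0.13 in 2 cases), -0.22 to 0.31 for Neu4 (-0.16 and -0.22), -0.12 to 0.0782 for Bcas1 (0.0746 and 0.0782) and -0.22 to 0.23 for Myrf (-0.09 and -0.22).

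The titles number the libraries, but a replicate number is not said to mark a litter or day. The deviations of same-numbered libraries correlated at -0.227. With the replicate block 8 of the 10 genes were called over whole sections (5813 of all genes), 7 over region-matched sums and 47 times over regions. Precision is limited by 2 libraries a group and by sparse genes such as Neu4, with 455 to 602 UMIs per library.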
